A study of Mus musculus with 3 samples.

Results

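Dppa2, Dppa3, Dppa4, Dppa5a, Pramel6, Pramel7, Tcl1 and Tdgf1 are genes of the early embryo that mouse embryonic stem cells (mESCs) also transcribe, and their transcripts were examined here in PD-treated J1 mESCs. The genes were given as a list of symbols, and every array probe whose RefSeq accession belongs to 1 of them was used. This gave 13 probes for 8 of the 20656 genes that could be named on the array. J1 is an mESC line of the mouse strain 129S4/SvJae, and PD (PD0325901) is a small molecule inhibitor of MEK, the kinase that activates ERK. All 3 samples, replicates 1 to 3, were cultures on gelatin in medium with leukemia inhibitory factor (LIF, 1000 U/mL) that received 1 µM PD for 24 h, and each RNA was hybridised to its own Agilent array in 1 colour. Cells given only DMSO were not analysed here, so no effect of PD could be tested, and every difference below is a difference between replicates of 1 condition.

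These genes are active for a short window of mouse development, in the oocyte, the cleavage stages, the inner cell mass or the early germ line, and are silent in most adult tissues. They act at different points. Some of their proteins bind chromatin or influence the maintenance of DNA methylation, while others bind RNA, assist the kinase AKT or serve as co-receptors for the growth factor Nodal. Pluripotent cells in culture keep many of them on, and several are used as marks of the naive state, in which MEK/ERK signaling is low.

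Several members lie side by side in the mouse genome. In the RefSeq annotation of GRCm38.p6, Dppa4 and Dppa2 are neighbours among the protein-coding genes of chromosome 16, and Pramel7 and Pramel6 are neighbours on chromosome 2. Dppa3 lies on chromosome 6 between Gdf3 and Nanog. Dppa5a is next to Ooep on chromosome 9, and Tcl1 is next to its relative Tcl1b4 on chromosome 12. The RefSeq promoter table held an entry for 4 of the 8 members. The 250 bases before the annotated start of these genes are shown 5′ to 3′ in the sense of the gene, because they hold the adjacent pair Pramel6 and Pramel7 beside Tcl1 and Tdgf1 and differ in their CG content. Capitals mark CG, the dinucleotide at which DNA methylation occurs in mammals.
Pramel6, chr2:87506315-87506564 (plus strand): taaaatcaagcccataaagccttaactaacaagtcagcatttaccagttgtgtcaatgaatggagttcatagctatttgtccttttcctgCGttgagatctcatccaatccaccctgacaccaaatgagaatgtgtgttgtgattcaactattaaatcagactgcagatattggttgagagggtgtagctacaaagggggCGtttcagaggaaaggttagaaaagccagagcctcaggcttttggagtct
Pramel7, chr2:87492419-87492668 (minus strand): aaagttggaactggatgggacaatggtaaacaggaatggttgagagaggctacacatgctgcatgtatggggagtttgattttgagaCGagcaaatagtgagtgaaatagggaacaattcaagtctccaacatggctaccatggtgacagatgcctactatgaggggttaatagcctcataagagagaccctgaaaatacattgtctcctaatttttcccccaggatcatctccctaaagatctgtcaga
Tcl1, chr12:105222738-105222987 (minus strand): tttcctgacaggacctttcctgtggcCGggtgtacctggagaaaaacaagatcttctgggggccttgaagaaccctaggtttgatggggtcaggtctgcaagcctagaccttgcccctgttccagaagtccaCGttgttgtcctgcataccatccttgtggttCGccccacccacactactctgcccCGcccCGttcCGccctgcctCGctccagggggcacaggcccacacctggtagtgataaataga
Tdgf1, chr9:110946159-110946408 (minus strand): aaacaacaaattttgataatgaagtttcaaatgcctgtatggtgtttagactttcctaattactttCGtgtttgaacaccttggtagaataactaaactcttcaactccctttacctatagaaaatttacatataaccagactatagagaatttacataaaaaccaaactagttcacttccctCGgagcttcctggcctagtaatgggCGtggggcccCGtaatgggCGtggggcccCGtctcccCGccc

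CG occurred 2 times in the window of Pramel6 and 1 time in that of Pramel7. The windows of Tcl1 and Tdgf1 held 7 each, against a median of 6 in 32851 promoter windows of the same length. A STAT motif, spelled TTCNNNGAA and searched on both strands, was in none of the 4 windows and in 7.02% of all windows. TATAAA was likewise in none of the 4 and in 12.4% of all. The GC box GGGCGG stood at 2 places before Tcl1 and at 1 place before Tdgf1, in neither Pramel window, and in 32.7% of all windows. These matches are descriptions of the letters in the windows. For Tcl1 the study also lists primers for RT-qPCR, which are shown because they are the only designed oligonucleotides for a member in the sources used here.
Tcl1 forward primer: gtgtacttggatgagtttcgtcg
Tcl1 reverse primer: ttgccacattaaaggcagctc

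The 3 arrays carried 59305 spots that were not controls. The 75th percentile of the processed signal over their probes was 551, 511 and 527 on replicates 1 to 3. The processed signal is the spot intensity after the scanner software has subtracted the background and removed spatial trends. It can therefore lie above the raw intensity: the first probe of Dppa2 had 8509 raw and 9729 processed on replicate 1. The level of a probe was its log2 signal minus the log2 of this percentile, so that a level of 0 is the 75th percentile of the array. Replicate 2 carried 6 of 48 array blocks in which at least 10 spots were flagged as non-uniform. The same count was not made for replicates 1 and 3, so such blocks may not be particular to replicate 2. These blocks held 12.4% of the detected probes and 1 of the 13 member probes, the second probe of Dppa2. The markers of ES cells chosen for this report (Pou5f1, Nanog, Sox2, Esrrb, Zfp42, Klf4 and Fgf4) were well above background on all arrays. Of 8 fibroblast markers, 4 were (Col1a1, Col1a2, Dcn and Thy1). Col5a2, Lum and Postn were on no array, and Col3a1 was on 1. The share over all genes, by their brightest probe, was 72.7%.

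All 13 member probes were flagged well above background on all 3 arrays, and so all 8 genes were detected. The same held for 60.3% of the 55681 probes that were not controls, for 72.4% of the 27229 probes matched to a gene and for 72.7% of the 20656 genes by their brightest probe. Each member probe had 1 spot per array. None of these 39 spots was saturated or flagged as an outlier. The raw intensity of the member spots was at least 4.26 times that of the local background. Signals of different probes depend on the probe sequence as well as on the amount of RNA, so the places of the probes on the array are descriptions and genes were not ranked by expression.

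**Figure D1:**
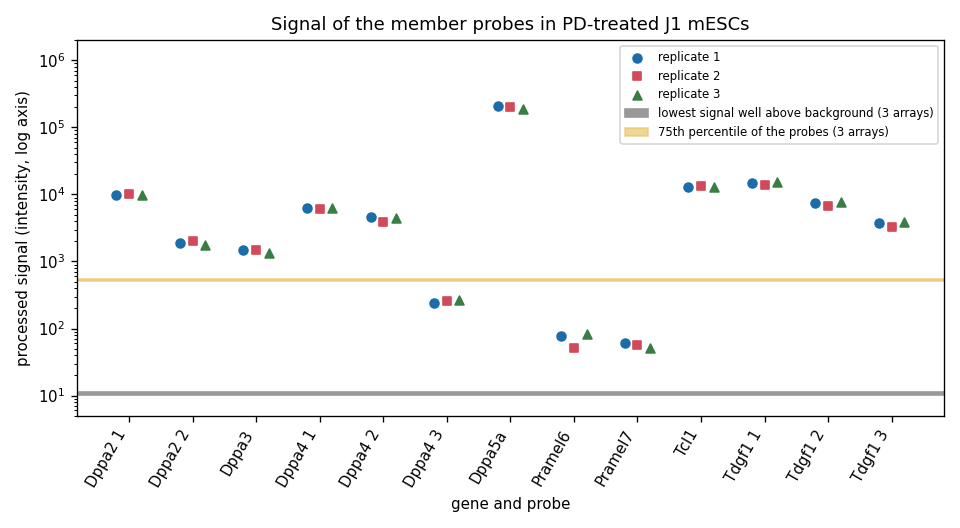
Processed signal (log axis) of each member probe in the 3 PD-treated samples, with the grey band at the lowest signals flagged well above background (10.1 to 11.4) and the yellow band at the 75th percentile of the probes (511 to 551). Probes of 1 gene are numbered from the brightest, and every point lies above the grey band, with Pramel6, Pramel7 and the third probe of Dppa4 below the yellow one.

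Dppa2 and Dppa4 encode nuclear proteins with a SAP domain that bind chromatin as a pair. Dppa2 had 2 probes. The first gave signals of 9729, 10178 and 9879 on replicates 1 to 3, and its level was 4.23 ± 0.09 (SD, n = 3 here and below). The second gave 1899, 2041 and 1739, with a level of 1.84 ± 0.14. Replicate 2 was the highest array for both probes, and after scaling it exceeded the lowest array by 1.13-fold and 1.21-fold. The second probe lay in a block with non-uniform spots on replicate 2, and the part of this block in its value was not tested. When each array was scaled to its median, replicate 3 was the highest one for the first probe.

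Dppa4 had 3 probes for the same accession. The brightest gave 6283, 5981 and 6384, with a level of 3.55 ± 0.04, the smallest SD of the 13 probes. The second gave 4684, 3852 and 4392, with a level of 3.02 ± 0.09. The third was far dimmer at 237, 256 and 265, with a level of -1.07 ± 0.13. In levels, the arrays did not keep 1 order over these probes: replicate 2 was the lowest array for the second probe and replicate 1 for the others. For the brightest probe the lowest array was replicate 2 when arrays were scaled to the median. The largest difference between arrays was 1.17-fold, for the third probe between replicates 1 and 3.

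Dppa3, also called Stella or PGC7, is a maternal factor that protects DNA methylation of the maternal genome after fertilization and restrains Uhrf1 in the oocyte. Its single probe gave signals of 1505, 1484 and 1338, and its level was 1.44 ± 0.10. Replicate 3 was the lowest array in signal and in level. Replicate 2 was the highest in level but replicate 1 in signal, so their order differs between signals and scaled levels. The RefSeq table also lists a pseudogene, Dppa3-ps, on chromosome X. The probe sequence is not used here, so a share of the signal from such a copy cannot be told apart.

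Dppa5a, also called Esg1, encodes a small RNA-binding protein with a KH domain. Its single probe was among the brightest of the array, with signals of 206458, 202351 and 189708. These exceeded 99.5% or more of the probes on each array. The level was 8.56 ± 0.07, and no spot was saturated. Replicate 3 was again the lowest array, whereas the order of replicates 1 and 2 depended on the scaling.

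Pramel6 and Pramel7 belong to the PRAME family of leucine-rich repeat proteins. Pramel7 is known from the inner cell mass, where its protein works with the ubiquitin ligase component CUL2 to lower UHRF1. Its single probe gave dim signals of 61.7, 56.9 and 51.8, with a level of -3.22 ± 0.11. The signals were 4.99 to 6.11 times the lowest signal flagged well above background on the same array. This SD was below the median SD of 0.14 over the 1000 detected probes nearest in level, of which 64.5% had a larger one.

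Pramel6 was also dim, and it was the member whose arrays differed most. Its single probe gave 77.4, 51.7 and 83.1, with levels of -2.83, -3.30 and -2.66 and an SD of 0.33. Replicate 2 was thus below both others, by 1.39-fold against replicate 1 and 1.56-fold against replicate 3. Replicate 2 was also the lowest in the raw intensities of the spot, which were 97.5, 67.5 and 93 over local backgrounds of 14, 14 and 15, whereas replicate 1 was the highest there. In the values deposited by the authors, on the log2 scale, the probe read 6.09, 5.56 and 6.27. The SD was 0.12 without replicate 2 and 0.15 after normexp correction of the background. That correction starts from the raw intensities and adds an offset of 50, which by itself narrows the log2 differences of a probe this dim. Of the 1000 detected probes nearest in level, 6.3% had a larger SD, against 64.5% for Pramel7. The probe was not in a block with non-uniform spots, but its spot lay in column 164, the last column of the array. Of the 216 single-spot probes detected in that column, 2.31% differed between replicates 1 and 2 by more than 2 combined errors of the scanner software and 4.63% between replicates 2 and 3, against 6.34% and 6.22% of all such probes.

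Tcl1 encodes a protein that binds AKT kinases and raises their activity, and it is a known supporter of mESC proliferation. Its single probe gave 12972, 13464 and 12979, with a level of 4.63 ± 0.08. Replicate 2 was the highest array and replicate 1 the lowest under each setting tried. In the unscaled signals, replicates 1 and 3 differed by far less than the error that the software gives to either spot.

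Tdgf1, also called Cripto, encodes a membrane-anchored co-receptor of the EGF-CFC family through which Nodal reaches its Activin-type receptors. It had 3 probes. The brightest gave signals of 14904, 13706 and 15110, with a level of 4.78 ± 0.05. The second gave 7398, 6701 and 7732, with a level of 3.78 ± 0.09, and the third gave 3794, 3266 and 3942, with a level of 2.79 ± 0.11. The 3 probes had the same order of arrays, with replicate 2 lowest and replicate 3 highest. This order was kept in the scaled levels under each setting tried, except after normexp correction of the background, where replicate 1 was the lowest array for the brightest probe. The RefSeq table lists the pseudogenes Tdgf1-ps1 and Tdgf1-ps2 on chromosomes 16 and 17, whose share in the signal cannot be told apart.

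The ratio of 2 probes of a gene on the same array is free of the scaling of that array, but not of the removal of spatial trends. Its SD over the arrays is small if the probes move together or if both hardly change. For Tdgf1 the log2 ratio of the first to the second probe was 1.01, 1.03 and 0.97 on replicates 1 to 3, an SD of 0.03. The first over the third gave an SD of 0.07 and the second over the third an SD of 0.04. In 3820 genes with at least 2 detected single-spot probes, the median SD of the ratio of the brightest pair was 0.108. These genes were not matched to the members by level. The ratio of the Dppa2 probes had an SD of 0.10, with values of 2.36, 2.32 and 2.51. For Dppa4 the first and second probe differed by 0.42, 0.63 and 0.54 (SD 0.11), and the second and the third by 4.30, 3.91 and 4.05 (SD 0.20). The brightest Dppa4 probe was 24.6-fold above the dimmest in mean, the largest gap within a member gene. The gap was 5.26-fold for Dppa2 and 3.98-fold for Tdgf1. Between the brightest pair alone, the mean log2 ratio was 2.39 for Dppa2, 0.53 for Dppa4 and 1.0 for Tdgf1. Over the 3820 genes the median of this ratio was 1.8, and it was above 1 in 68.1% of them.

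The arrays were then compared with the error of single spots. The scanner software gave each member signal an error of 10% to 11.4% of its value. A pair of arrays was counted as different for a probe if its levels differed by more than 2 combined errors. Of the 39 pairs over 13 probes, 2 were different, and 5.34% of the 99510 pairs over all detected single-spot probes were. Both belonged to Pramel6, at 2.12 combined errors between replicates 1 and 2 and 2.86 between replicates 2 and 3. The share of all such probes that differed was 6.34% and 6.22% for these pairs of arrays, and 3.45% between replicates 1 and 3. All these shares are over probes of any level and were not matched to the members, most of which are bright. Both Pramel6 pairs include replicate 2, so omitting that array leaves no different pair by construction, and omitting replicate 1 or 3 leaves 1. Among the 36 pairs of the other 12 probes the largest difference was 1.34 combined errors, for the second probe of Dppa2 between replicates 2 and 3. No p-value belongs to this count, since the error is a model of the software and not a replicate.

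**Figure D2:**
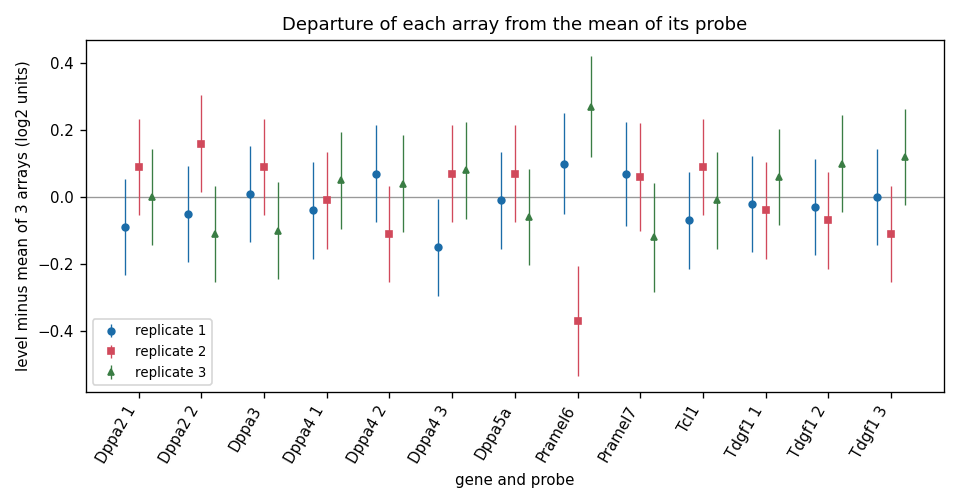
Level of each array minus the mean of the 3 arrays (log2 units) for the 13 member probes, with bars for the error that the scanner software gives to the spot. The bars of the 3 arrays overlap for 12 of the 13 probes, and for Pramel6 replicate 2 stands apart from the others, as it lies 0.37 below the mean and replicate 3 lies 0.27 above it.

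The SDs of the 13 probes over the arrays ranged from 0.044 to 0.33 log2 units, with a median of 0.094. The median over all 33474 detected probes was 0.090, and over the 19668 of them matched to a gene it was 0.077. Without replicate 2 the median fell to 0.0615 for the member probes and to 0.0634 for all detected probes. None of the 13 probes had a range above 1 log2 unit, and 1.85% of all detected probes had one. The spread falls with the signal, and most member probes are bright, so each was also set beside the 1000 detected probes nearest in level. The SD was above the median of these neighbours in 10 of 13 probes, the exceptions being the brightest probes of Dppa4 and Tdgf1 and the probe of Pramel7. Without replicate 2 the number was 12 of 13, without replicate 1 it was 11 and without replicate 3 it was 8. By definition, as many neighbours lie above their median as below it. The 13 probes come from 8 genes on the same arrays, so they are not separate observations. For 6 of 13 probes replicate 2 departed most from the middle array, for 6 it was replicate 3 and for 1 replicate 1. Replicate 2 did so in 41.2% of all detected probes.

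**Figure D3:**
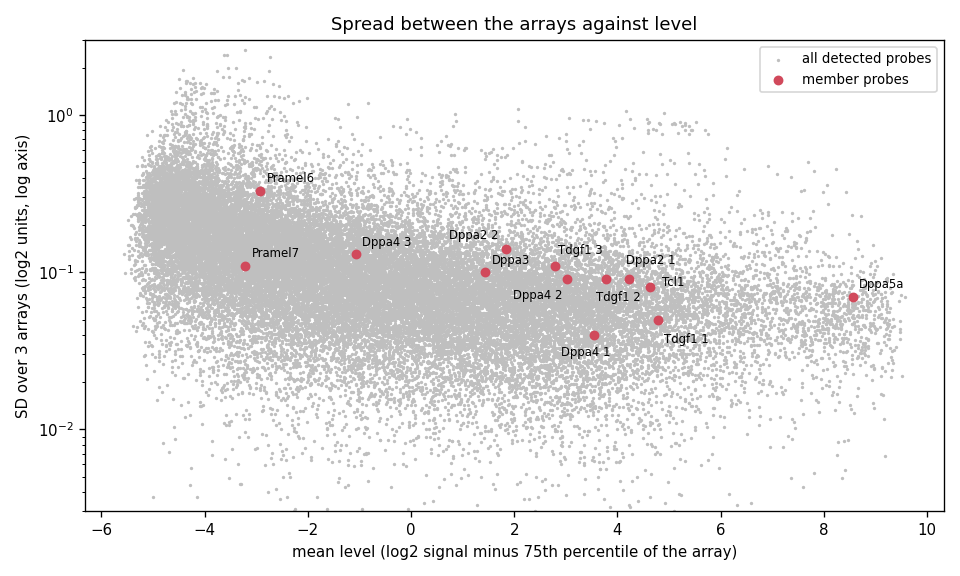
SD over the 3 arrays (log2 units, log axis) against the mean level of a probe, for 33474 detected probes in grey and the 13 member probes in red, where a few grey points of the smallest SD fall below the axis. Pramel6 stands in the upper part of the grey cloud at its level with an SD of 0.33, while Pramel7, at a like level, has an SD of 0.11.

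The families of the members offered relatives on the same arrays. In all, 43 relatives by symbol were on the array, and 22 (51.2%) were detected on all 3 arrays by their brightest probe, against 72.7% of all genes. Dppa1, which shares the name but was on no array above background, had signals of 2.01, 4.95 and 3.59. Of the 29 other PRAME family genes, 15 (51.7%) were detected. The brightest of these was Pramel12, with signals of 2213, 2043 and 2132, followed by Pramel13 with 1888, 1721 and 1726. The dimmest detected one was Pramel24, with 11.3, 11.5 and 15.9. These lie near the lowest signals flagged well above background, 10.1, 11.4 and 10.3 on replicates 1 to 3. Of the 3 Pramel24 probes, 1 was detected. Wide differences between arrays occurred in PRAME genes that were not detected throughout. Oog4 read 12.5, 158 and 10.9 and Pramel32 read 3.52, 37.1 and 2.42, and both probes lay in the blocks with non-uniform spots on replicate 2. Pramel51, at 2.47, 12.5 and 5.74, and Pramel17, at 17.8, 12.0 and 8.06, also ranged over more than 1 log2 unit and lay outside these blocks. Pramel4 and Pramel27 lay inside them with ranges of 0.24 and 0.30. Both were above background on no array, with mean signals of 2.96 and 2.62, so their ranges say little about these blocks. PRAME genes are a large family of similar sequences, so signal may be shared between copies, which was not tested.

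Of the 6 relatives of Tcl1, 3 were detected: Mtcp1 at a mean signal of 195 ± 3.96, Tcl1b2 at 42.7 ± 0.697 and Tcl1b4, the neighbour of Tcl1, at 52.4 ± 5.45. Tcl1b1, Tcl1b3 and Tcl1b5 were above background on no array. Among the relatives of Dppa5a with a KH domain, Khdc3 and Ooep, which encode parts of the subcortical maternal complex of the oocyte, were detected. Khdc3 gave 7250, 4810 and 6888 and lay in a block with non-uniform spots on replicate 2. Ooep, next to Dppa5a in the genome, gave 84.8, 82.8 and 87.5. Khdc4 was detected too, but it was included by its name alone. Khdc1a, Khdc1b and Khdc1c were not above background on any array. Cfc1, the other EGF-CFC co-receptor of Nodal, was detected with 101, 43.1 and 39.8. Replicate 1 was its high array, and its range of 1.28 log2 units was wider than that of any member.

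**Figure D4:**
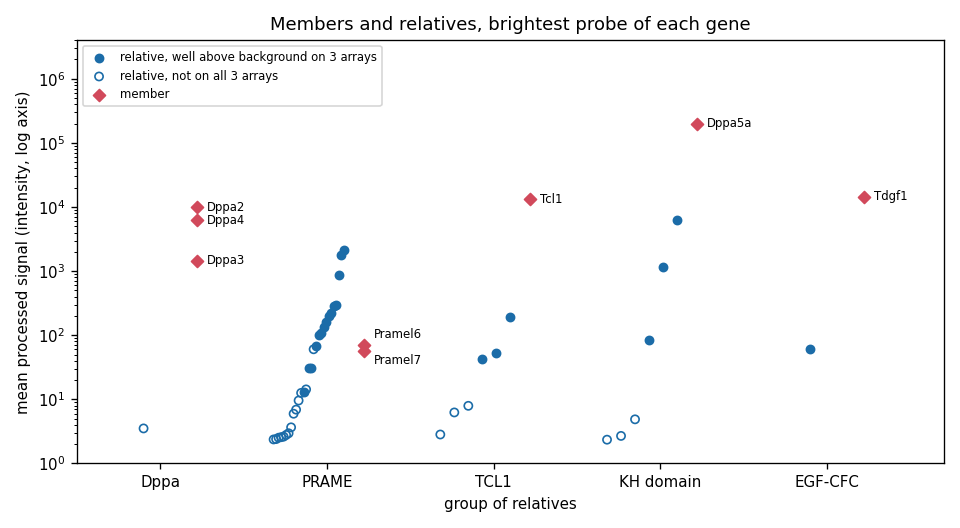
Mean processed signal over the 3 arrays (log axis) of the brightest probe of each gene, with the members as red diamonds and their relatives by family as circles, filled where the probe was well above background on all 3 arrays. The 8 members are all well above background, as are 22 of the 43 relatives, and Pramel6 and Pramel7 lie within the range of the detected PRAME relatives.

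Transcripts of known partners of the members were looked at as well, each gene by its brightest probe. Some of these genes had several probes, such as 4 for Cul2, and the levels of their dimmer probes are not given. Of 13 genes of the Nodal pathway, the route in which Tdgf1 works, 12 (92.3%) were detected, against 72.7% of all genes. The exception was the receptor gene Acvr1c. The ligand gene Nodal had a level of 4.08 ± 0.05, and the ligand genes Gdf3 and Gdf1 had levels of 5.42 ± 0.04 and 2.12 ± 0.03. Of the receptor genes, Acvr2b was at 5.23, with an SD that rounds to 0, Acvr2a at -1.43 ± 0.12 and Acvr1b at -3.27 ± 0.09. The signal transducers Smad2, Smad3 and Smad4 had levels of 1.24 ± 0.07, 1.53 ± 0.06 and 3.46 ± 0.05, and their partner Foxh1 had 1.46 ± 0.06. The targets and inhibitors Lefty1 and Lefty2 had levels of 4.52 ± 0.04 and 3.35 ± 0.05. The AKT kinase genes Akt1 and Akt2, with whose products Tcl1 is linked, were detected at levels of 2.56 ± 0.06 and 2.83 ± 0.10. Uhrf1 and Dnmt1, which maintain DNA methylation and to which Dppa3 and Pramel7 are linked, had levels of 6.12 ± 0.02 and 2.58 ± 0.03. The ubiquitin ligase genes Cul2 and Rbx1 had levels of 3.64 ± 0.03 and 6.34 ± 0.04. Whether any of these levels differs from that in cells without PD was not analysed here.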

How the data were processed

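Total RNA of 3 PD-treated J1 mESC cultures from independent experiments was labelled with Cy3 and hybridised to 1 Agilent array each. Per the file headers, intensities were made with Agilent Feature Extraction 10.7.3.1, which subtracted background and removed spatial trends. The authors also deposited a log2 table, whose normalization is not given in the sources used here. Its columns had the same median of 5.18. Flags of 0 or 1 per spot, recorded as other values in the deposited files, gave detection.

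Accessions without versions were matched to RefSeq (GRCm38.p6), which named 27229 of 55681 probes (48.9%). The grid of the array refers to mm9, and no array coordinates are given. A probe was detected if at least 50% of its spots were well above background. Outlier spots were left out of levels. Code ran in Python 3.11.15 and R 4.3.3 with limma 3.58.1 (normexp), and was tested on simulated data. limma's planned test over 10-spot probes was not run, since no member had such a probe. Members and lists were chosen with earlier results of these data known. Named are all members with all their probes, the partners (1 of which is not reported here), and of the relatives by symbol the detected ones of highest and lowest level. Other relatives were named after their values were seen. The number of arrays limits the precision. No likeness of pattern was computed, since the samples share 1 condition.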

Additional observations from a re-analysis of the deposited data

How the results depend on the processing

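No paired analysis was possible because the 3 replicates share a single condition. Alternatives were other scalings (median, detected probes, spots, quantile), normexp with an offset of 50, kept outlier spots, no filter, the authors' deposited values and the omission of any 1 replicate, and for detection another flag and other spot rules. The percentile over spots, the alternatives for array pairs and probe ratios, and those for relatives were chosen after seeing the data. All 13 probes stayed detected and none had a range above 1 log2 unit under every alternative run for these counts.

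The median SD of 0.094 was between 0.0839 and 0.0964 under the other settings and from 0.0615 to 0.103 on omitting any 1 replicate, with the lowest value without replicate 2. The number of array pairs that differed was 2 under each scaling tried. On omitting any 1 replicate it was from 0 to 1, and 0 without replicate 2. Both pairs include replicate 2, so these counts were fixed by the pairs themselves and are no further check. The SD of Pramel6 was 0.15 after normexp correction, and 0.12 without replicate 2, against 0.33 as reported. The normexp offset by itself narrows log2 differences of dim probes, so the 0.15 is no check of the difference between arrays. The number of detected relatives was 22 by any probe and 17 when all probes of a gene had to pass.

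The test over 10-spot probes and its other settings were not run, as no member has such a probe. Levels move by a constant with the reference chosen for 0, by 3.74 to 3.75 with the median and by -1.92 to -1.91 with detected probes. After normexp correction they moved by -0.34 to 0.89, and 11 of 13 moved by more than their SD. Of the 7 probe ratios, 5 did so after normexp correction and none changed sign. The normexp setting started from the raw intensities, so it also lacked the software's removal of spatial trends. Dim probes are least precise: the error share of a spot reached 11.4% for Pramel6.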

Other observations

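Germ cell and oocyte genes were looked at because several members are also known from those cells. All 6 germ cell markers were well above background on the 3 arrays. Tfap2c, a transcription factor of early germ cells, had a level of 3.62 ± 0.06, and Nanos3, which protects migrating germ cells, had 1.92 ± 0.08. Ddx4, Dazl and Dnd1, which encode RNA-binding proteins of the germ line, had levels of 1.00 ± 0.06, 0.80 ± 0.01 and 0.80 ± 0.07, and the transcription factor gene Prdm1 had -0.46 ± 0.12. Of 8 oocyte markers 2 were detected on all arrays: Zp3, which encodes a protein of the egg coat, at 0.87 ± 0.17 and the growth factor gene Gdf9 at -1.50 ± 0.09. Zp1, Bmp15, Nobox and Oosp1 were above background on no array, Zp2 on 1 and Figla on 2. For comparison, 72.7% of all genes were detected. Some of the markers are known from mESCs too, so their detection does not name a cell type.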
